A study of Homo sapiens with 6 samples.

Results

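The clustered protocadherin genes were taken as the protein-coding genes on chromosome 5 whose symbols begin with PCDHA, PCDHB or PCDHG in GENCODE 44. They were 53 genes, namely 15 alpha, 16 beta and 22 gamma genes. The peaks inside these genes or within 5 kb of them were 95 of the 171517 in the count table, with 23 at the alpha, 16 at the beta and 56 at the gamma cluster. Each peak was counted once, since the alpha genes share their last exons with each other, and so do the gamma genes.

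Chromatin accessibility had been measured by ATAC-seq, in which a transposase cuts open DNA and the cuts are counted by sequencing. The cells were of H9, a widely used line of human embryonic stem cells, grown in the naive state (nES cells) in tt2iLGö, a medium of N2B27 with PD0325901, CHIR99021, Gö 6983 and human LIF. They had been taken off their mouse feeder cells and plated on laminin. All 6 libraries came from this line and medium, with 3 control libraries labelled DMSO (0 mM dm-αKG in the protocol) and 3 given 4 mM dm-αKG, a cell-permeable form of the metabolite α-ketoglutarate, for 24 h. By the study's methods the libraries are biological replicates of one experiment.

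The clustered protocadherins are cell adhesion proteins, best known from neurons, where each cell uses its own combination of them and so tells its own branches from those of its neighbours. Each alpha or gamma gene has a variable exon with a promoter of its own, which is spliced to constant exons shared by the whole cluster, and each beta gene is a single exon. Most of these promoters carry a conserved element that contains CGCT and is bound by CTCF, and the alternate alpha genes have a further CTCF site inside the variable exon. The C-type genes (PCDHAC1, PCDHAC2, PCDHGC3, PCDHGC4 and PCDHGC5) lie nearest to the constant exons and are used in most neurons, whereas the others are chosen by chance. DNA methylation and SMCHD1 keep unchosen promoters silent.

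On hg38 the genes of the alpha cluster spanned chr5:140786136-141012347, those of the beta cluster chr5:141051374-141249365 and those of the gamma cluster chr5:141330514-141512977. All of them are on the plus strand, so the sequences printed here are in the direction of transcription.

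The following 24-base stretches of the promoters, each holding the element, are shown because they let the promoters with and without a peak be compared. Promoters of 300 bases, from 250 before to 50 after the start (RefSeq, GRCh38.p14), were found for 47 of the 53 genes. CGCT was present on the gene's strand in the 100 bases before the start in 44 of these 47 (93.6%), against 28.1% of all 27305 RefSeq promoters. In each gene the copy of CGCT whose surroundings were most like those of the other genes of its cluster was taken. CGCT is in capitals and the rest of the element in lower case. The elements of PCDHA2 (chr5:140794785-140794808), PCDHA4 (chr5:140806983-140807006) and PCDHA8 (chr5:140841134-140841157) stand for the alpha cluster. Those of PCDHA2 and PCDHA4 lay inside a peak, and that of PCDHA8 lay in none.
PCDHA2: gccacatgatgtCGCTgtccacca
PCDHA4: gccacatgatgtCGCTctttacca
PCDHA8: gccacatgatgtCGCTgtctacca

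Beta genes shared other letters around the same core. PCDHB3 (chr5:141100397-141100420), PCDHB12 (chr5:141208647-141208670) and PCDHB13 (chr5:141213869-141213892) are shown, since PCDHB12 had no promoter peak and PCDHB13 had one with the same 24 bases.
PCDHB3: aacgcatggtggCGCTgttgacta
PCDHB12: gacgcgtggtggCGCTgcaggata
PCDHB13: gacgcgtggtggCGCTgcaggata

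In the gamma cluster the elements of PCDHGB4 (chr5:141387621-141387644), PCDHGB6 (chr5:141407928-141407951) and PCDHGC3 (chr5:141475884-141475907) belong to the most accessible promoters, and that of PCDHGA9 (chr5:141402718-141402741) belongs to a promoter with no peak.
PCDHGB4: gactctgggcgcCGCTgttggcca
PCDHGB6: gcctctgggcgcCGCTgtcggcca
PCDHGC3: gactctgtgtgcCGCTgtcggcca
PCDHGA9: gactctgagcgcCGCTgttgatca

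The best copies in PCDHAC1 (chr5:140926224-140926247), PCDHAC2 (chr5:140966369-140966392) and PCDHB1 (chr5:141051278-141051301) were unlike the rest.
PCDHAC1: agaaggtgtggtCGCTcacgttca
PCDHAC2: gcagtccgggttCGCTgtccgcca
PCDHB1: ggggagttgagtCGCTcaatgcaa

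These copies matched the best copies in other genes of their cluster in 11.1 (PCDHAC1), 12.6 (PCDHAC2) and 11.54 (PCDHB1) of 24 bases on average, against a median of 17.4 over the alpha, 19.0 over the beta and 17.8 over the gamma genes. In PCDHGB7, the most accessible gamma B promoter, the stretch most like the cluster had CGCC in place of the core, and PCDHA9, with no CGCT in its 300 bases, had one with CACT there. They are printed with these 4 letters in capitals (chr5:141417587-141417610 and chr5:140848291-140848314).
PCDHGB7: gcctctgggcgcCGCCgtcggcca
PCDHA9: gccacgtgatgtCACTctttgccg

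The PCDHGB7 stretch matched the PCDHGB6 element in 23 of 24 bases, and the PCDHA9 stretch matched that of PCDHA7 in 21. In this search, made after the copies had been seen and without the need for CGCT, the stretch most like the cluster reached an average of 11.55 of 24 bases in PCDHAC1 and 13.85 in PCDHB1, and in PCDHAC2 it was the copy printed above. The best CGCT copy lay at a median position of -55 bases from the start in the alpha, -61.5 in the beta and -60 in the gamma promoters. The same 9 letters recurred within a cluster. GGTGGCGCT was in 13 of 14 beta promoters and in 0.311% of all promoters, GATGTCGCT in 9 of 13 alpha promoters and in 0.073% of all, and GCGCCGCTG in 10 of 20 gamma promoters and in 0.571% of all, on the gene's strand. None of the 3 strings was found in a member promoter of another cluster. These letters were chosen after the promoters had been seen, so their shares only describe them. The member promoters held a median of 7 CpG dinucleotides and 39.7% GC, against 14 and 58.3% over all RefSeq promoters. TATAAA was in 12.8% of them and in 11.95% of all, and CACGTG in 6.38% and 7.43%, each searched on both strands.

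At the promoters, the median accessibility was highest in the C-type genes, followed by the gamma B genes, and lowest in the alternate alpha genes, although single genes crossed this order. In bulk libraries, a site open in fewer cells and a site less open in each cell cannot be told apart. A gene's promoter peak was the one with the highest mean count among those centred within 1 kb of the start of its canonical transcript, and levels between genes are given as TMM-normalized counts per 200 bp. The medians in control over the genes with a promoter peak were 246 in the C-type, 97.2 in the gamma B, 50.1 in the gamma A, 45.1 in the beta and 32.0 in the alternate alpha genes. The value of 32.0 rests partly on exonic peaks. In PCDHA8, PCDHA9 and PCDHA13 the only promoter peak lay in the coding exon and not at the start. The alternate alpha peaks at a start had 28.6 (PCDHA2), 55.7 (PCDHA4) and 36.9 (PCDHA11). By the 1 kb rule 32 of 53 genes had a promoter peak, namely 8 of 15 alpha, 9 of 16 beta and 15 of 22 gamma genes. The genes with none were PCDHA1, PCDHA3, PCDHA5, PCDHA6, PCDHA7, PCDHA10 and PCDHA12 in the alpha cluster, PCDHB4, PCDHB5, PCDHB6, PCDHB7, PCDHB9, PCDHB11 and PCDHB12 in the beta cluster, and PCDHGA4, PCDHGB2, PCDHGA5, PCDHGA6, PCDHGA8, PCDHGA9 and PCDHGC5 in the gamma cluster. The table has no peak within 1 kb of the starts of these genes, so their levels were not measured here. Of the 32 promoter peaks, 9 were above 83.9, the median of all 61873 promoter peaks of the table in control.

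PCDHGC3, a C-type gamma gene, had the highest promoter of the 3 clusters, at 378 ± 10.3 in control (SD, n = 3). Its peak at chr5:141475803-141476003 had normalized counts of 376, 392 and 373 in the control libraries and 356, 403 and 359 with dm-αKG. The groups overlapped, and the edgeR log2 fold change of dm-αKG over control was -0.03 ± 0.09 (SE, adjusted p = 0.83). The element printed above for PCDHGC3 lay inside this peak and matched that of PCDHGB6 in 21 of 24 bases.

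PCDHAC1 came next, at 331 ± 36.9. Its peak at chr5:140926484-140926684 lay 285 bp after the start in an exon annotated as UTR, and had counts of 364, 292 and 343 in control and 279, 321 and 280 with dm-αKG. A further peak at its start (chr5:140926229-140926430) had 192, 178 and 168 in control and 144, 151 and 144 with dm-αKG. At the start every treated library was below every control library, with a log2 fold change of -0.30 ± 0.13 that did not pass edgeR's test (adjusted p = 0.099).

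The C-type genes PCDHGC4 and PCDHAC2 had levels of 161 ± 20.7 and 113 ± 17.2 in control. PCDHGC4 (chr5:141484885-141485085) had counts of 184, 157 and 143 in control and 171, 173 and 133 with dm-αKG, which overlapped. PCDHAC2 (chr5:140966965-140967165, in its coding exon) had 96.6, 113 and 131 in control and 144, 155 and 135 with dm-αKG. Its treated libraries were all above its controls, by 0.36 ± 0.15 on the log2 scale (edgeR adjusted p = 0.074). The fifth C-type gene, PCDHGC5, had no peak within 1 kb of its start, although peaks lay 2.38, 2.61, 3.07, 3.41 and 3.69 kb after it, the highest at 114 per 200 bp.

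The gamma B genes exceeded the gamma A genes in median level. The 6 gamma B promoter peaks ran from 45.8 to 118 and the 7 gamma A peaks from 26.2 to 90.1, so that the ranges overlapped. PCDHGB7 was the highest of them at 118 ± 10.2, and PCDHGB5, PCDHGB4 and PCDHGB6 followed at 102.7 ± 9.62, 101.4 ± 15.3 and 93.0 ± 3.36. These neighbours in the order lay within their replicate spread of one another, as did PCDHGA12 at 90.1 ± 9.54. PCDHGB4 and PCDHGB5 have the same element letters, and parts of their exons are repeated, as given further on. The lowest gamma promoters were PCDHGA2 at 26.2 ± 4.07, PCDHGA1 at 27.3 ± 8.43 and PCDHGA3 at 27.9 ± 3.06, which did not differ beyond their spread.

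Beta promoters were low, from 26.8 to 70.4, all below the median of all promoter peaks (83.9). PCDHB2 had 70.4 ± 6.27, PCDHB1 65.7 ± 4.85 and PCDHB3 61.3 ± 1.66, and the lowest were PCDHB15 at 26.8 ± 11.0, PCDHB10 at 27.4 ± 6.84 and PCDHB13 at 37.2 ± 3.47. Among the alternate alpha genes the highest was PCDHA4 at 55.7 ± 6.28, and PCDHA2, PCDHA9 and PCDHA13 were lowest at 28.6 ± 12.5, 29.2 ± 10.3 and 30.0 ± 8.12. The PCDHA9 and PCDHA13 values are those of exonic peaks, since these genes had no peak at the start. The lowest 3 of the alternate alpha genes did not differ beyond their SDs. The control libraries of PCDHB15 overlapped those of PCDHB10 and PCDHB13, while those of PCDHB13 were all above those of PCDHB10. Parts of the PCDHB13 and PCDHB8 peaks are repeated sequence, as given further on, so their levels are uncertain.

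**Figure D1:**
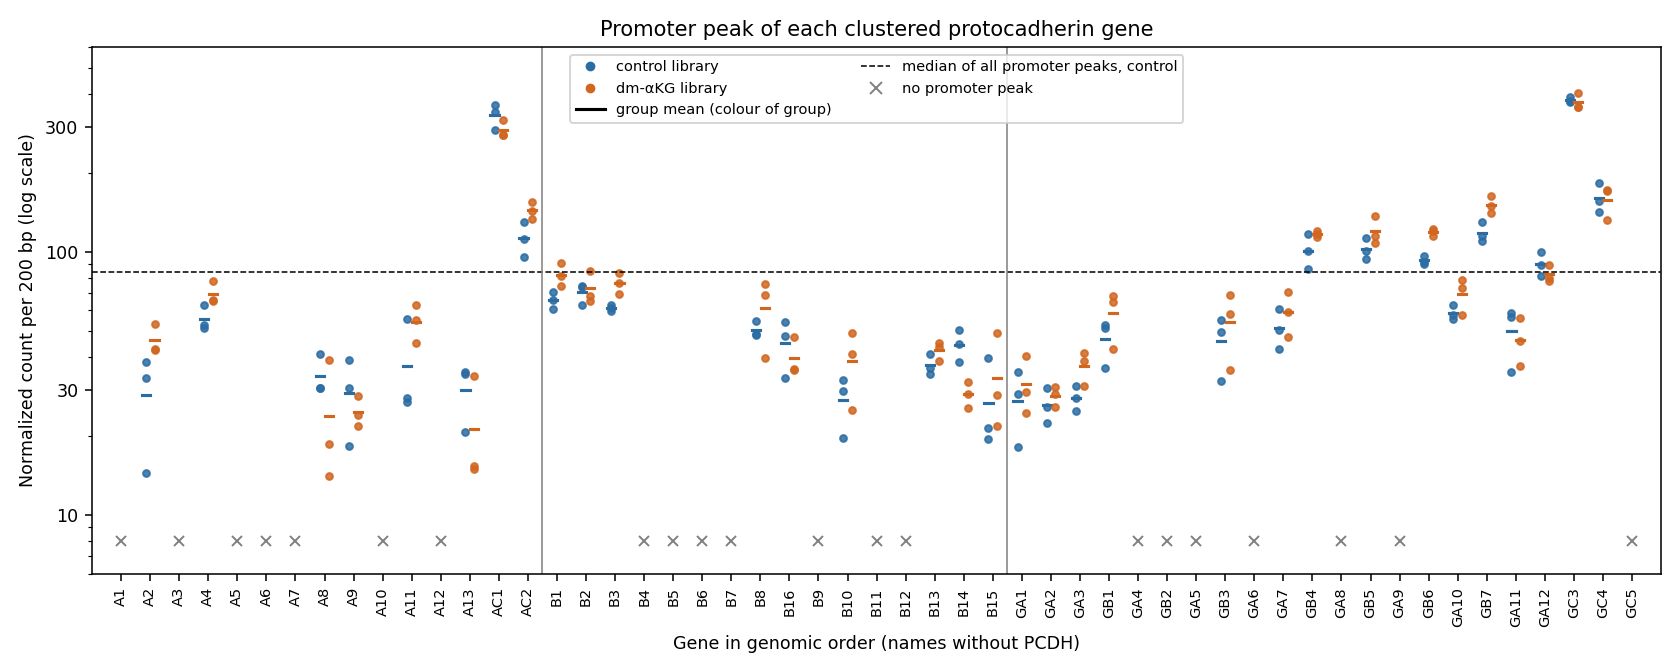
Promoter peak level of the 53 genes in genomic order, as TMM-normalized counts per 200 bp on a log scale, with 3 control and 3 dm-αKG libraries as points and group means as short lines. The C-type genes PCDHGC3 and PCDHAC1 stand highest in both groups, and the crosses mark the 21 genes with no promoter peak.

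Peaks around the starts were ordered in rows. Of the 95, 29 had their centre within 100 bp of a start, 18 lay over 100 and up to 320 bp after it and 18 over 320 and up to 800 bp after it. Median levels in control were 50.7, 28.6 and 33.3 per 200 bp for these groups. The highest promoter peak of a gene was the one at the start in 25 of 32 genes. Because summits were cut to 200 bp and touching peaks joined, peaks closer than that could not appear as separate rows.

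**Figure D2:**
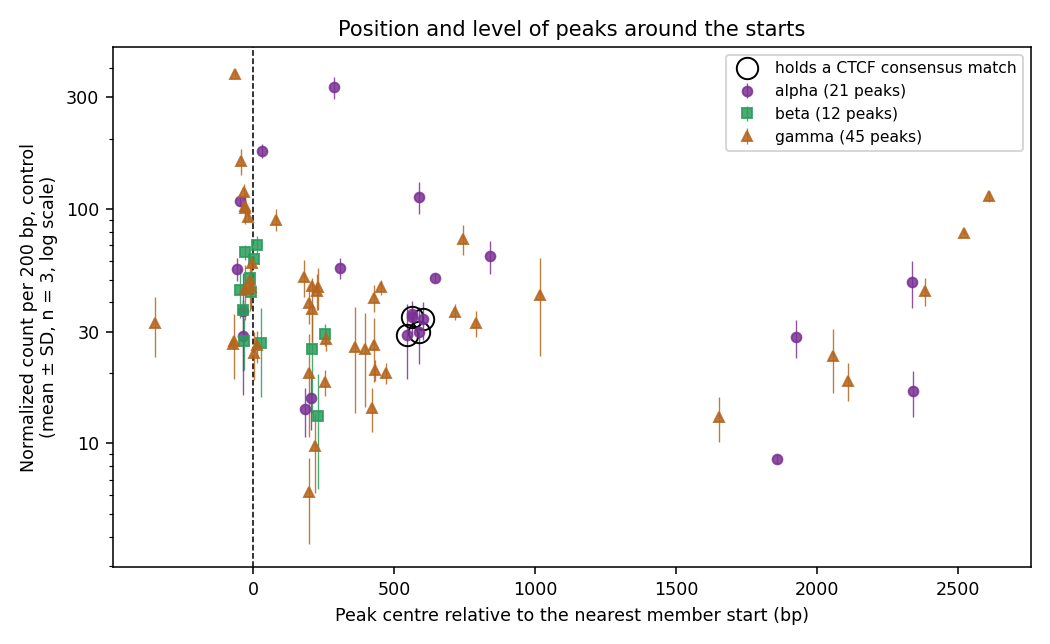
Control level of the peaks near a start (mean ± SD over 3 libraries, log scale) against the distance of the peak centre from the nearest start. Levels are highest around 0, a group of peaks lies about 200 bp downstream, and the 4 ringed alpha peaks with a CTCF consensus match lie between 546 and 602 bp.

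In the alpha variable exons 4 peaks carried a match to the CTCF consensus, and in PCDHA8, PCDHA9 and PCDHA13 such a peak was the gene's only promoter peak. The consensus has 14 letters with ambiguous bases and was searched on both strands in 200 bp around each peak's centre, with up to 1 mismatch. It was found in 5 of the 95 peaks (5.26%) and in 7.45% of all peaks. This consensus did not match most of the promoter elements with CGCT. Of 47 member promoters only 1 had a match with up to 1 mismatch (2.13%), against 2.86% of all RefSeq promoters. The shares of peaks thus leave most of those elements uncounted, and do not show how many member peaks hold a CTCF site. The 4 alpha matches all lay in coding exons, at 564 bp (PCDHA4), 602 bp (PCDHA8), 546 bp (PCDHA9) and 587 bp (PCDHA13) after the start by peak centre. The exon letters around the site are shown with the consensus match in capitals, for these 4 genes and for PCDHA7, which had the site but no peak. They are hg38 windows of 60 bases at chr5:140807621-140807680 (PCDHA4), chr5:140841755-140841814 (PCDHA8), chr5:140848929-140848988 (PCDHA9), chr5:140882702-140882761 (PCDHA13) and chr5:140834817-140834876 (PCDHA7).
PCDHA4: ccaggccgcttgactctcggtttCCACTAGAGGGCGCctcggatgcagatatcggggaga
PCDHA8: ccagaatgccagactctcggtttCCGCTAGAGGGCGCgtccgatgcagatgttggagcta
PCDHA9: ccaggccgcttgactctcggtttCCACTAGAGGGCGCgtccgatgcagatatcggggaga
PCDHA13: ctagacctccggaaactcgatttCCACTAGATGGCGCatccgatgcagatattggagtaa
PCDHA7: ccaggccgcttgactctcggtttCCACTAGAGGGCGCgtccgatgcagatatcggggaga

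A match within 1 mismatch lay 400 to 800 bp after the start in 10 of the 13 alternate alpha genes, always 570 to 621 bp after it and on the gene's strand. No C-type alpha, beta or gamma gene had one in that window, and of the 829 other protein-coding genes of chromosome 5 it was found in 10 (1.21%). Of the 10 alpha genes only 4 had the site inside a peak. The windows of PCDHA7 and PCDHA9 were the same in 60 of 60 bases, so a read from one cannot always be told from the other. This window was chosen after the peaks with a match had been seen.

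None of the 4 exonic peaks passed the test with dm-αKG. PCDHA8 had normalized counts of 30.4, 41.1 and 30.4 in control and 18.6, 14.1 and 38.9 with dm-αKG, so 1 treated library lay among the controls. Its log2 fold change was -0.58 ± 0.32 (edgeR adjusted p = 0.20). PCDHA9 had 32.2, 41.1 and 19.4 in control against 30.1, 23.1 and 25.4, and PCDHA13 had 34.9, 34.5 and 20.6 against 33.7, 15.4 and 14.97. Both overlapped, with log2 fold changes of -0.24 ± 0.30 and -0.41 ± 0.32 (edgeR adjusted p = 0.63 and 0.41). PCDHA4 differed from these in sign, at 0.46 (edgeR adjusted p = 0.21), and its groups overlapped too.

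The fifth match was at the other end of the locus. A peak at the last gamma exon, in the 3′ UTR shared by the gamma genes, held the consensus without mismatch on the minus strand (chr5:141512501-141512514 on hg38), printed here on the plus strand with 5 bases on either side.
Gamma 3′ UTR site: ccagtGCGCCCCCTAGTGGccata

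This peak had 149 per 200 bp in control, the highest level among the 18 gamma peaks away from promoters, and a log2 fold change of -0.22 (edgeR adjusted p = 0.30) with overlapping groups.

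With dm-αKG, none of the 95 peaks was called at an adjusted p below 0.01 with a change of more than 2-fold in edgeR, thresholds taken from the study. The background over all peaks was 0.782% more accessible and 1.96% less accessible. DESeq2 and limma also called 0 of the 95, but the share that these tools called over all peaks was not taken. At an unadjusted edgeR p below 0.05 there were 20 of the 95 (15 higher and 5 lower). Over all 171517 peaks there were 52646 (24553 higher and 28093 lower). The higher ones were 15.8% of the members and 14.3% of all peaks. At an adjusted p below 0.05 with no fold threshold, 6 peaks rose and 1 fell, against 7.43% and 10.5% of all peaks. The share that rose, 6 of 95, was thus near the background. At 0.05 alone DESeq2 gave 2 higher and 1 lower, against 3.65% and 6.64% of all peaks in that tool. The 3 dm-αKG values were all above the 3 control values in 20 peaks (15.5% of all peaks) and all below them in 6 (16.9% of all peaks).

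More of the changes were above 0 than below. Of the 95 peaks 68 (71.6%) had a positive log2 fold change, against 51.2% of all peaks and 63.4% of all promoter peaks. Their median was 0.19, against 0.01 over all peaks. The medians were 0.19 in the alpha, 0.20 in the beta and 0.16 in the gamma cluster. All promoter peaks of the table had a median of 0.09 and the 283 other peaks within 1 Mb of the clusters one of 0.07. Peaks of the table between the lower and upper quartiles of the members' levels (26.4 and 64.3 per 200 bp) had a median of 0.02. These are descriptions of 95 neighbouring peaks, and no test was made over them.

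**Figure D3:**
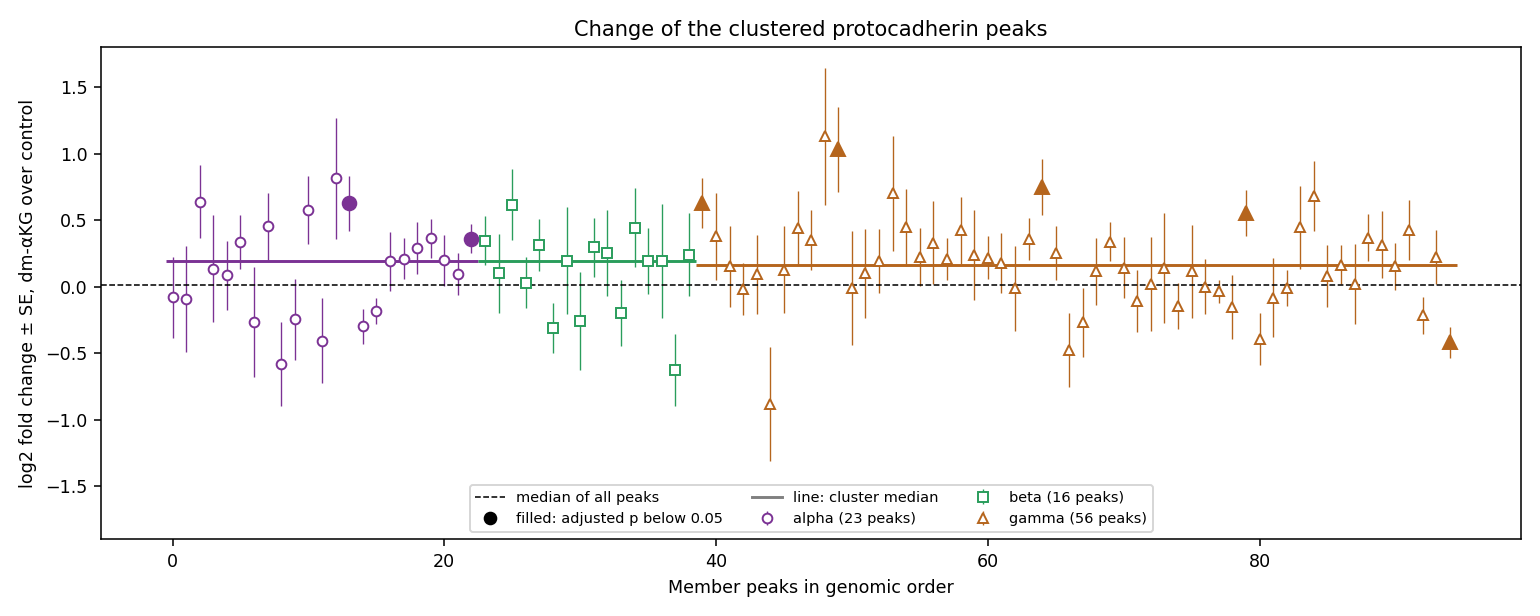
Log2 fold change of dm-αKG over control (± SE, edgeR) for the 95 peaks in genomic order, with filled symbols at an adjusted p below 0.05. Cluster medians of 0.19, 0.20 and 0.16 lie above the dashed median of all peaks at 0.01, and 7 symbols are filled.

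Summed over peaks, each library gave 1 value per cluster. The alpha cluster had 1688, 1670 and 1598 normalized counts in control and 1790, 1879 and 1721 with dm-αKG, a 1.09-fold difference with every treated library above every control. The gamma cluster had 3407, 3293 and 3450 in control and 3685, 3671 and 3661 with dm-αKG, again 1.09-fold and without overlap. The beta cluster overlapped, with 638, 674 and 678 in control and 718, 647 and 790 with dm-αKG (1.08-fold). Exact two-sided permutation tests over the 6 libraries gave p = 0.1 for alpha and gamma, the smallest that 3 against 3 allows, and p = 0.3 for beta. No peaks outside the clusters were summed in this way. All promoter peaks of the table had a positive median log2 fold change too (0.09), so these sums do not show a gain particular to the clusters.

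The 53 promoter peaks of genes other than the C-type summed to 2206 ± 9.21 in control and 2507 ± 70.7 with dm-αKG (1.14-fold, exact permutation p = 0.1). Each treated sum was above each control sum. The 14 C-type promoter peaks had 1680 ± 42.6 in control and 1734 ± 90.2 with dm-αKG (1.03-fold, exact permutation p = 0.4), and these overlapped. The log2 ratio of C-type to other promoters was -0.39 ± 0.04 in control and -0.53 ± 0.12 with dm-αKG, and this difference of -0.14 gave an exact permutation p of 0.2. The division into C-type and other promoters was made after the data had been seen.

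**Figure D4:**
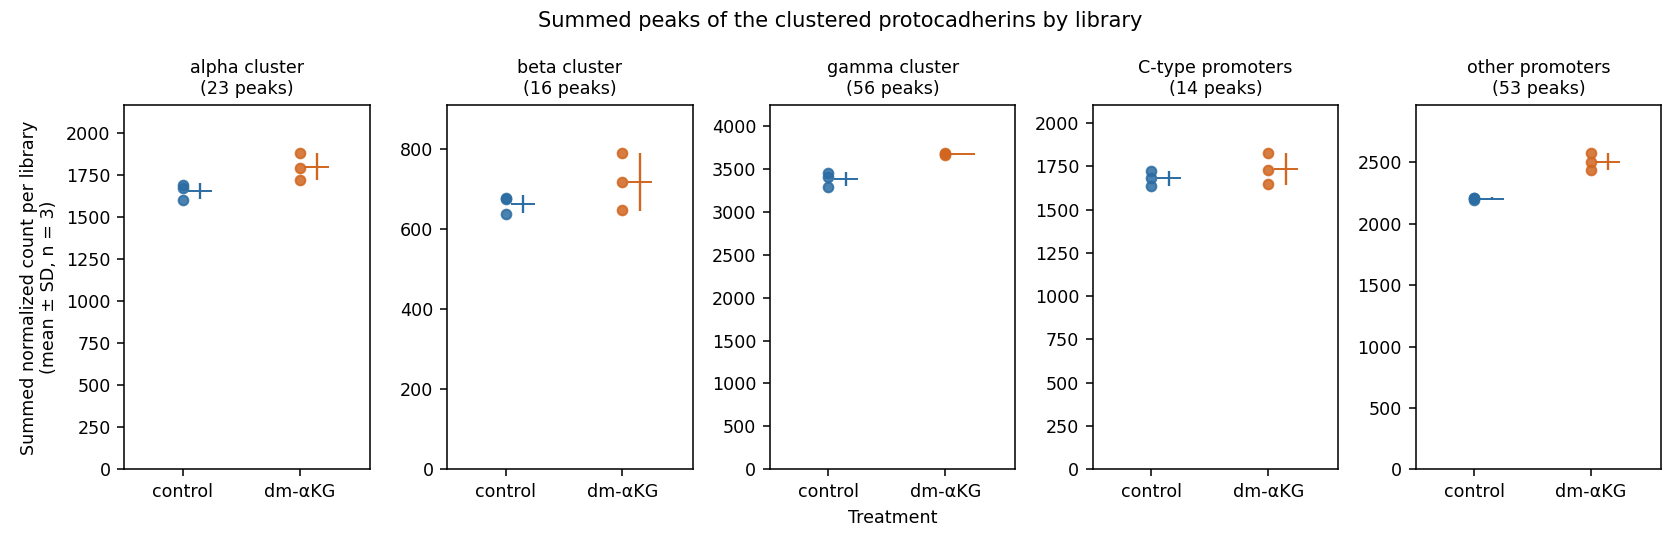
Summed normalized count of each library over the peaks of each cluster and over C-type and other promoter peaks, with points for libraries and mean ± SD (n = 3), on axes that start at 0. The treated libraries lie above the controls in the alpha and gamma clusters and in the other promoters, and overlap them in the beta cluster and the C-type promoters.

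None of the 32 highest promoter peaks of the genes passed an adjusted p of 0.05 in edgeR, DESeq2 or limma. Of all promoter peaks, 9.78% were higher and 4.8% lower at that threshold in edgeR. The shares were 4.68% and 2.82% in DESeq2, and 8.48% and 4.5% in limma. Of the 32, 6 had an unadjusted edgeR p below 0.05, and of all 61873 promoter peaks 16875 had one. The log2 fold changes of the 32 ran from -0.63 to 0.64, with 22 positive and 10 negative. PCDHA2, in the alpha cluster, had the most positive value, with counts of 38.5, 33.7 and 14.6 in control and 43.0, 53.9 and 43.4 with dm-αKG. Control replicate 3 was far below the other controls, and the SE was 0.27 (edgeR adjusted p = 0.092). PCDHB14 (chr5:141223232-141223438) had the most negative, with 46.5, 39.5 and 52.2 in control and 26.5, 33.4 and 29.9 with dm-αKG. Its groups did not overlap, and its log2 fold change of -0.63 ± 0.27 also missed the threshold (edgeR adjusted p = 0.091). PCDHGB7 (chr5:141417543-141417743) had 131, 111 and 115 in control and 141.3, 150 and 165 with dm-αKG, a log2 difference of 0.34 ± 0.14 (edgeR adjusted p = 0.089).

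Of the 16 peaks of the beta cluster none passed at 0.05 in edgeR, DESeq2 or limma, and 2 had an unadjusted edgeR p below 0.05. Over all peaks the shares past an adjusted 0.05 were 7.43% higher and 10.5% lower in edgeR. They were 3.65% and 6.64% in DESeq2, and 6.59% and 9.84% in limma. Of all 171517 peaks 52646 had such an unadjusted p. PCDHB1 had 70.7, 64.9 and 75.3 in control and 97.5, 79.5 and 86.8 with dm-αKG, and PCDHB3 had 62.6, 64.1 and 60.7 in control and 78.2, 70.6 and 85.3 with dm-αKG. Neither overlapped, and their log2 fold changes were 0.35 ± 0.18 and 0.31 ± 0.19 (edgeR adjusted p = 0.19 and 0.27). A peak at -4.24 kb from the start of PCDHB2 had 21.5, 32.1 and 41.3 in control and 42.3, 46.2 and 56.9 with dm-αKG (log2 fold change 0.62 ± 0.27, edgeR adjusted p = 0.097). PCDHB2 itself was at 0.03 ± 0.19.

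Of the 6 peaks that rose, none was the highest promoter peak of a protocadherin gene. In the alpha cluster one was the coding peak 2.34 kb into PCDHA13 (chr5:140884360-140884563), with 59.9, 52.6 and 37.7 in control and 66.7, 78.3 and 95.8 with dm-αKG. All treated values were above the controls, and the log2 fold change was 0.63 ± 0.21 (edgeR adjusted p = 0.025).

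The other alpha peak (chr5:141004241-141004463) was in the intron between the shared constant exons, in the stretch between the second and the third of them, a region of the cluster known to hold enhancer sequence. It had 208, 195 and 194 in control and 260, 278 and 228 with dm-αKG, the most counts of any peak that rose. The values did not overlap, with a log2 fold change of 0.36 ± 0.11 (edgeR adjusted p = 0.014). The neighbouring peak in the same intron, on the promoter side, was at 0.09 (edgeR adjusted p = 0.74).

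In the gamma cluster a peak centred at -4305 bp from the start of PCDHGA1 (chr5:141326108-141326310), outside the protocadherin genes on the side of TAF7 and centred 1 bp from the annotated start of a long noncoding RNA (ENSG00000272070), had 69.8, 53.4 and 60.7 in control and 98.96, 92.4 and 91.3 with dm-αKG. It rose by 0.63 ± 0.19 on the log2 scale (edgeR adjusted p = 0.011). The coding peak 2.11 kb into PCDHGA4 (chr5:141357030-141357229), a gene with no promoter peak, had 21.5, 14.8 and 19.4 in control and 30.1, 33.4 and 53.9 with dm-αKG. In both peaks the groups did not overlap. The PCDHGA4 peak had the largest change of the 6, at 1.03 ± 0.32 (edgeR adjusted p = 0.015), on the fewest counts.

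The peak with the smallest p of the 6 was 225 bp into PCDHGB6 (chr5:141408141-141408351), in the coding exon. It had 51.9, 37.8 and 52.2 in control and 63.8, 91.1 and 86.8 with dm-αKG, with a log2 fold change of 0.75 ± 0.21 (edgeR adjusted p = 0.0072). The start of the same gene was at 0.36 (edgeR adjusted p = 0.11), where the groups also did not overlap. In PCDHGC3 the coding peak 742 bp after the start (chr5:141476604-141476813) had 89.4, 66.6 and 79.0 in control and 120, 123 and 97.3 with dm-αKG. It rose by 0.55 ± 0.17 (edgeR adjusted p = 0.015), while the far higher start of that gene did not pass.

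A further PCDHGC3 peak, 2.52 kb after the start at the end of its variable exon (chr5:141478388-141478587), had 80.5, 78.9 and 77.7 in control and 63.1, 50.0 and 67.4 with dm-αKG. It lay lower in every treated library, and its log2 fold change of -0.39 ± 0.20 missed the threshold (edgeR adjusted p = 0.16).

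The peak that fell was just past the gamma cluster (chr5:141514228-141514626), between its last exon and the end of DIAPH1, a formin gene that runs toward it on the other strand. It was 399 bp wide and had 216, 253 and 278 in control and 187, 186 and 183 with dm-αKG. All treated values were lower, and the log2 fold change was -0.42 ± 0.11 (edgeR adjusted p = 0.0054). The promoter peak of DIAPH1 was at 0.01 (edgeR adjusted p = 0.97).

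**Figure D5:**
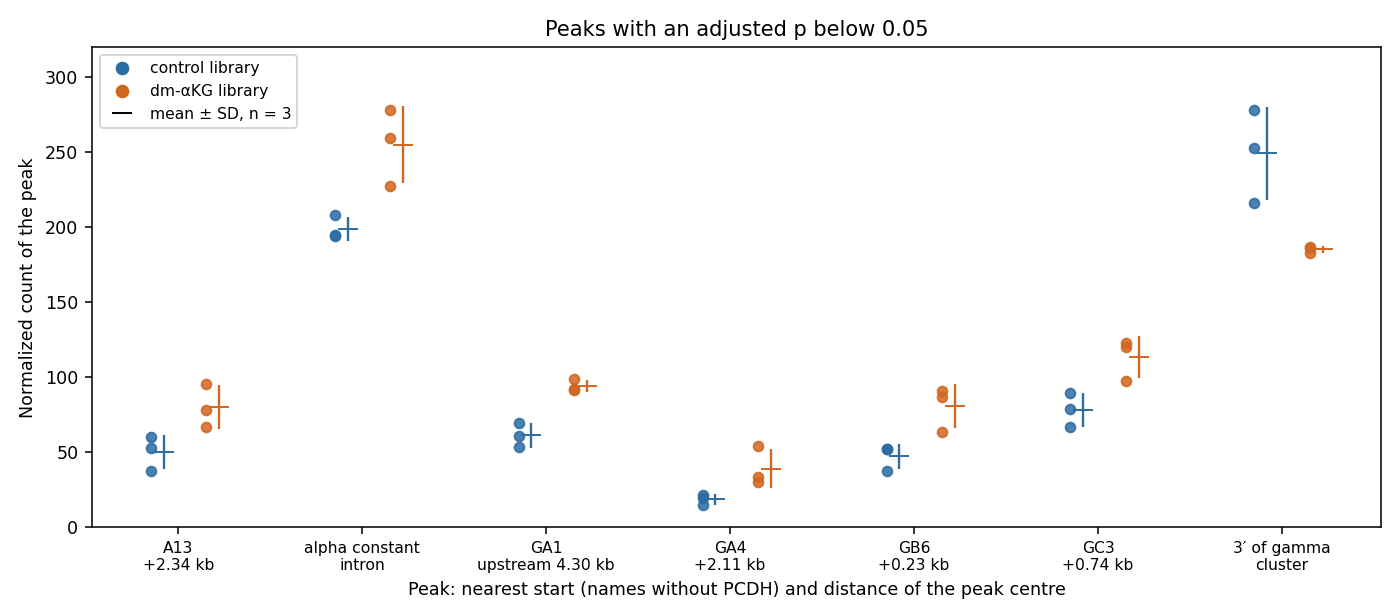
Normalized count of the 7 peaks with an adjusted p below 0.05 in each library (points) with mean ± SD (n = 3). In 6 peaks the dm-αKG libraries lie above all controls, and in the peak 3′ of the gamma cluster they lie below, at 183 to 187.

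These calls rested on few libraries. Without control replicate 2 no peak rose at an adjusted p of 0.05 in edgeR, against 5.15% of all peaks, and 11 were higher at an unadjusted p below 0.05 (12.4% of all peaks). The 6 peaks kept log2 fold changes of 0.35 to 0.88 there, with adjusted p of 0.053 to 0.11. Without dm-αKG replicate 2 only 3 peaks rose (4.85% of all peaks). Without control replicate 3 the peak past the gamma cluster did not pass either. In DESeq2 the peaks upstream of PCDHGA1 and in PCDHGB6 kept an adjusted p below 0.05 among the 6.

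Several peaks lie in sequence that occurs more than once on chromosome 5, where reads of one gene can be placed at another. By the share of 61-base words that were repeated there, the peaks 431 bp into PCDHGB4 and 429 bp into PCDHGB5 were at 100%. Those at 210 bp (PCDHGB4) and 208 bp (PCDHGB5) were at 75.7% and 78.6%, and the PCDHGB6 peak that rose was at 30.7%. The PCDHA9 exonic peak was at 42.9%. In the beta cluster the peaks at the starts of PCDHB13 and PCDHB8 were at 37.1% and 24.3%. Those 229 bp into PCDHB13 and 209 bp into PCDHB8 were at 56.4% and 14.3%. The peak 2055 bp into PCDHGB2 was at 66.4% and that 228 bp into PCDHGB7 at 29.3%. The start peaks of PCDHGB4 and PCDHGB5 were each at 12.9%. Levels of these peaks are uncertain between the paralogs.

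Peak lists had been deposited for each treatment. Of the 95 peaks 66 overlapped both lists, 15 (15.8%) the control list only and 14 (14.7%) the dm-αKG list only, when each listed peak was cut to 200 bp around its summit. Of all peaks 15.4% overlapped the control list only and 13.2% the dm-αKG list only. Their median fold enrichment over the background was 8.64 in the control list and 8.07 in the dm-αKG list. The lists pool replicates, so these counts carry no replicate error.

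Other genes of the family and its regulators were read at their promoter peaks. Of 11 non-clustered protocadherins 10 had one, and none passed at an adjusted p of 0.05 in edgeR, DESeq2 or limma (1 at an unadjusted edgeR p below 0.05). Their median level was 161, and that of the clustered genes 50.4. Of 21 regulators of the clusters, 20 had one, with 2 higher and 3 lower in edgeR, and of all promoter peaks 9.78% were higher and 4.8% lower. MAU2, which loads cohesin with NIPBL, rose by 0.32 ± 0.09 (edgeR adjusted p = 0.0047), and TRIM28, a corepressor, by 0.28 ± 0.07 (edgeR adjusted p = 0.0012). Those lower were RAD21, a cohesin subunit, at -0.32 ± 0.10, SMCHD1, which silences the clusters, at -0.38 ± 0.11, and DNMT1, the maintenance DNA methyltransferase, at -0.38 ± 0.11 (edgeR adjusted p = 0.015, 0.0081 and 0.011). In DESeq2 RAD21 missed the threshold (adjusted p = 0.067) and the other 4 passed, and in limma all 5 passed. CTCF was at 0.15 ± 0.07 (edgeR adjusted p = 0.14). All 15 genes around the clusters had a promoter peak, 12 different peaks in all. None of these passed at 0.05 in edgeR, DESeq2 or limma (2 at an unadjusted edgeR p below 0.05). Of all 61873 promoter peaks 16875 had such an unadjusted p. HARS1 and HARS2, IK and NDUFA2, and HDAC3 and RELL2 share a peak pairwise.

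Counts in peaks per library ran from 13025674 to 26828622, and the 95 peaks took 4124 to 8636 of them, so single weak peaks rest on few reads. All 8 naive markers had a promoter peak (190.6 to 1016 per 200 bp), as did 6 of 6 primed, 5 of 6 trophoblast, 6 of 7 neural and 4 of 6 fibroblast markers, with THY1 in both the primed and the fibroblast list, so an open promoter did not by itself tell these cell types apart. With dm-αKG, SUSD2 was higher and KLF17 and POU5F1 lower among the naive markers in edgeR, DESeq2 and limma at an adjusted p of 0.05. KRT7 among the trophoblast markers was higher, at 0.57, and MAP2 among the neural markers lower, at -0.32, in edgeR and limma (edgeR adjusted p = 0.031 and 0.028) but not in DESeq2 (adjusted p = 0.093 and 0.088). SYT1, a neural marker, was lower in all 3 tools, at -0.40 (edgeR adjusted p = 0.00071), with groups that overlapped. The primed markers SFRP2 and DUSP6 were at -0.42 and -0.30 (edgeR adjusted p = 0.027 and 0.0093) with groups that overlapped. Neither passed in DESeq2 (adjusted p = 0.11 and 0.053). In limma DUSP6 passed (limma adjusted p = 0.021) and SFRP2 did not (limma adjusted p = 0.056). None of 4 fibroblast peaks passed in any of the 3 tools, and none had an unadjusted edgeR p below 0.05. Their part in the protocadherin values was not tested.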

How the data were processed

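ATAC-seq libraries of nES cells, 3 control and 3 with 4 mM dm-αKG, were grouped by the treatment in their labels. The authors used the ENCODE ATAC-seq pipeline once per treatment, with Bowtie 2 for alignment (hg38) and MACS2 for peaks. They deposited a list of reproducible peaks for each treatment, with a score, the signal as a fold enrichment, and p- and q-values as −log10. They then cut peaks to 200 bp around the summit, merged them and deposited raw counts of reads per merged peak and library (bedtools 2.28.0). The deposited counts carry no normalization.

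edgeR 4.0.16 under R 4.3.3 tested the counts of all 171517 peaks (TMM scaling, quasi-likelihood test, treatment as the only term, no filter), and p-values were adjusted by Benjamini-Hochberg over all peaks. Calls needed an adjusted p under 0.01 with a log2 fold change past 1 in either direction, and peaks were also read at an adjusted p of 0.05 alone. The model and its search scripts were tested on simulated data. DESeq2 1.42.0, limma 3.58.1, other scalings, a filter of at least 10 counts in every library and leaving out each library were alternatives. DESeq2 gave an adjusted p for 86 of the 95 peaks. Sums per library were compared by exact two-sided permutation tests in scipy 1.17.1. All replicate pairs differed by more than sampling noise (chi-square per degree of freedom 1.80 to 2.18), so none was a library deposited again.

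Gene models were GENCODE 44 and promoter sequences RefSeq's. No entry was used for PCDHA3, PCDHA13, PCDHB6, PCDHB11, PCDHGA12 and PCDHGC5. The peaks named were those with an adjusted p below 0.05, in each cluster the 3 with the smallest edgeR p in each direction, the highest peak, the 3 highest and 3 lowest promoter peaks, and those of the C-type genes and PCDHB1. Peaks and genes outside this rule (the starts of PCDHGB4, PCDHGB5, PCDHGB6 and PCDHGA12, the exonic peak of PCDHA4, the peaks after PCDHGC5 and at the last gamma exon, and the repeated ones) were chosen after their values were seen. Also outside this rule were the neighbouring peak in the alpha constant intron and the promoter peaks of CTCF and DIAPH1. The members and gene lists were chosen with earlier results of these data known.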

Additional observations from a re-analysis of the deposited data

How the results depend on the processing

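With at least 10 counts in every library, which left 82 of the 95 peaks, 1 member peak, in PCDHGA4, was called as more accessible. At an adjusted p below 0.05 alone, this filter gave 7.32% of the members and 7.71% of all peaks as higher. Without the filter, an adjusted p below 0.05 and a log2 fold change past 0.5 gave 5 more accessible. In the count past an adjusted p of 0.05 alone, the 6 higher peaks became 2 in DESeq2 (3.65% of all peaks). At an adjusted p of 0.01 they became 1. No share over all peaks was taken for the counts of 1 and 5. The higher peaks ranged from 0 to 7 with 1 library left out (4.55% to 7.63% of all peaks). The lower ones ranged from 0 to 2 (7.11% to 10.9% of all peaks). Gene spans alone, which leave out the peak past the gamma cluster, gave 0 lower. Median log2 fold changes moved by more than the spread between treated libraries in the alpha cluster (0.21 with total counts, 0.17 with the replicate block, 0.17 in limma, and 0.12 to 0.23 with 1 library left out), and over all members (0.21 with total counts, 0.18 with gene spans alone, and 0.15 to 0.19 with 1 library left out). They stayed positive in every alternative run. The gamma sum gave a log2 ratio of 0.13 with total counts and 0.10 to 0.13 with 1 library left out. Up to 2 mismatches put the CTCF consensus in 13 member peaks and in 20.7% of all peaks. The cause was not tested in any of these. Same-numbered libraries did not deviate together (correlations of -0.016, -0.0009 and 0.013). No effect shared by number was seen, although this cannot show whether the numbers mark paired preparations. With the replicate block 6 peaks were higher (7.18% of all peaks) and 1 lower (10.3% of all peaks), and the alpha median was 0.17.

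Of 394 values of the 33 named peaks under alternatives, 361 kept direction and side of the threshold, 21 lost the call, 2 gained it and 10 changed sign. None of the sign changes was in a peak past the threshold. They were PCDHGC4 with total counts (0.0065) and, with 1 library left out, PCDHA9 (-0.46 to 0.022), PCDHB2 (-0.080 to 0.12), PCDHB15 (-0.086 to 0.66), PCDHGA1 (-0.038 to 0.37), PCDHGC3 (-0.091 to 0.0081) and PCDHGC4 (-0.08 to 0.10).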
